A study of Mus musculus with 16 samples.

Results

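Toll-like receptors are membrane proteins that recognise microbial lipids, proteins and nucleic acids, and molecules set free by damaged cells. Receptors for lipids and proteins sit mainly at the cell surface, and those for nucleic acids sit in endosomes. Most of them signal through the adaptor Myd88 to NF-kB, and the endosomal ones also to interferon regulatory factors. In the dorsal root ganglion (DRG), which holds the cell bodies of sensory neurons, they are known from resident and infiltrating macrophages, glia and some neurons, and have been studied in neuropathic pain for that reason. The genes described here are the receptors Tlr1, Tlr2, Tlr3, Tlr4, Tlr7, Tlr8, Tlr9 and Tlr13, the co-receptor Cd14 and the adaptor Myd88. They were chosen by name, 10 of the 52636 genes listed in the count files, and all 10 were found and passed the filter on low counts.

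RNA was sequenced from the DRGs of male C57BL/6J mice, with 1 mouse per library and 4 mice in each of 4 groups. Mice underwent spared nerve injury (SNI), in which the common peroneal and sural nerves are cut and the tibial branch is left intact, or a sham operation. By the labels, treatment began 4 weeks after surgery and lasted 3 weeks, with saline or with desipramine (DMI), a tricyclic antidepressant that blocks noradrenaline reuptake, injected intraperitoneally at 15 mg/kg, 2 times a day. The groups are named Sham-Saline, Sham-DMI, SNI-Saline and SNI-DMI. All mice shared strain, sex and an age of 3 to 4 months, and the labels name no transgene or deletion. The methods place the start of treatment months rather than weeks after surgery, and the operated side of the harvested ganglia is not stated.

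Between 41194238 and 73920332 read pairs per library fell on genes. The labels name the tissue both as spinal cord and as DRG. Sensory neuron genes summed to 6770 to 8299 CPM (read counts scaled to the library's total) per library, and 9 genes of spinal cord cells to 51.8 to 85.1 CPM. Of these 9, Mag (30.1 to 54.4 CPM), Aqp4 (7.53 to 13.4), Slc1a2 (6.17 to 14.2) and Gfap (1.6 to 6.49) were measured in every library, while Mog, Olig1, Slc6a5 and Chat reached at most 0.749, 1.04, 0.519 and 0.0919 CPM and Olig2 was at 0 in 5 libraries. Slc1a2 was called lower with DMI in sham and in injured mice, and Gfap in sham mice. Olig1 was called higher after injury in saline mice, where 5 of the 6 genes tested were higher and 1 lower. Atf3, Sprr1a, Gal, Npy and Ecel1 are genes of injured sensory neurons. In sham mice they summed to 29.6 to 41.6 CPM with saline and 45.6 to 73.3 CPM with DMI. In injured mice the sums were 159 to 183 and 147 to 268 CPM, so every library matched its surgery label. In sham mice 4 of the 5 (Atf3, Sprr1a, Npy and Ecel1) were called higher with DMI, where 11.6% of all genes were. The cause was not tested. All DMI libraries carry lower library numbers than all saline libraries, and each group holds its own run of consecutive numbers. A difference by drug or by injury therefore cannot be told apart from one by library order.

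The stretch just upstream of the start is shown for Tlr1, Tlr13 and Tlr2, the members on which the comparisons below turn. The sequences are from RefSeq on GRCm38.p6, read 5′ to 3′ on the gene's strand, and were cut where the GENCODE M21 gene begins. Capitals mark the core site of PU.1, a transcription factor of myeloid cells, in Tlr1 and Tlr13 and a pair of overlapping NF-kB consensus matches in Tlr2.
Tlr1, chr5:64933564-64933808, minus strand: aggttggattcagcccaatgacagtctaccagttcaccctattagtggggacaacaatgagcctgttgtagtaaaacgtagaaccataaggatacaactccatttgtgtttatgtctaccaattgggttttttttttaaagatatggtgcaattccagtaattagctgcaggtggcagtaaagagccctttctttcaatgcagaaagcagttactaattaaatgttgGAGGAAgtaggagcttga
Tlr13, chrX:106143025-106143203, plus strand: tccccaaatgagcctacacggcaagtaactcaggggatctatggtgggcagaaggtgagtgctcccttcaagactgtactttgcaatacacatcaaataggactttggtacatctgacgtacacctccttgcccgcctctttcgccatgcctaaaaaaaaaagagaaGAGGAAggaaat
Tlr2, chr3:83841768-83841858, minus strand: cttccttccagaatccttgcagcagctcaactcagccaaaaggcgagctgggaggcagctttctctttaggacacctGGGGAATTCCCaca
The PU.1 core was searched as GAGGAA on both strands of the 250 bases before each start that RefSeq gave here. No promoter of Tlr4, Tlr7 or Cd14 was searched. The PU.1 core was present for Tlr8, Tlr9, Tlr13 and 1 of 2 starts of Tlr1, and 23.3% of 32851 promoters hold it. The NF-kB consensus was found for Tlr2 and Tlr3 and in 7.25% of promoters. The core of the interferon response element was found for Myd88 and in 2.98% of promoters. These matches are descriptions of letters and say nothing of binding.

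Per kilobase of exon, Myd88 was the most abundant of these genes in Sham-Saline, at 3.59 ± 0.417 CPM per kilobase (SD, n = 4). Cd14 followed at 1.42 ± 0.0544 and Tlr3, the receptor for double-stranded RNA, at 1.36 ± 0.11. Tlr4, which senses lipopolysaccharide together with Cd14, ran from 0.757 to 0.906 CPM per kilobase, and Tlr2, which senses bacterial lipoproteins, averaged 0.459. Below these came Tlr9 (0.357 CPM per kilobase), a receptor for unmethylated CpG DNA, and Tlr7 (0.281), a receptor for single-stranded RNA. Tlr1, the partner of Tlr2 in heterodimers, stood at 0.273, Tlr13, a sensor of bacterial ribosomal RNA, at 0.186 and Tlr8 at 0.141. Among the receptors not in the set, Tlr5, the flagellin receptor, lay between Tlr3 and Tlr4 at 1.17, and Tlr12, Tlr6 and Tlr11 lay below Tlr8 at 0.137, 0.118 and 0.0718. Neighbours in this order overlapped between mice except Myd88 and Cd14, Tlr5 and Tlr4, and Tlr4 and Tlr2.

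**Figure D1:**
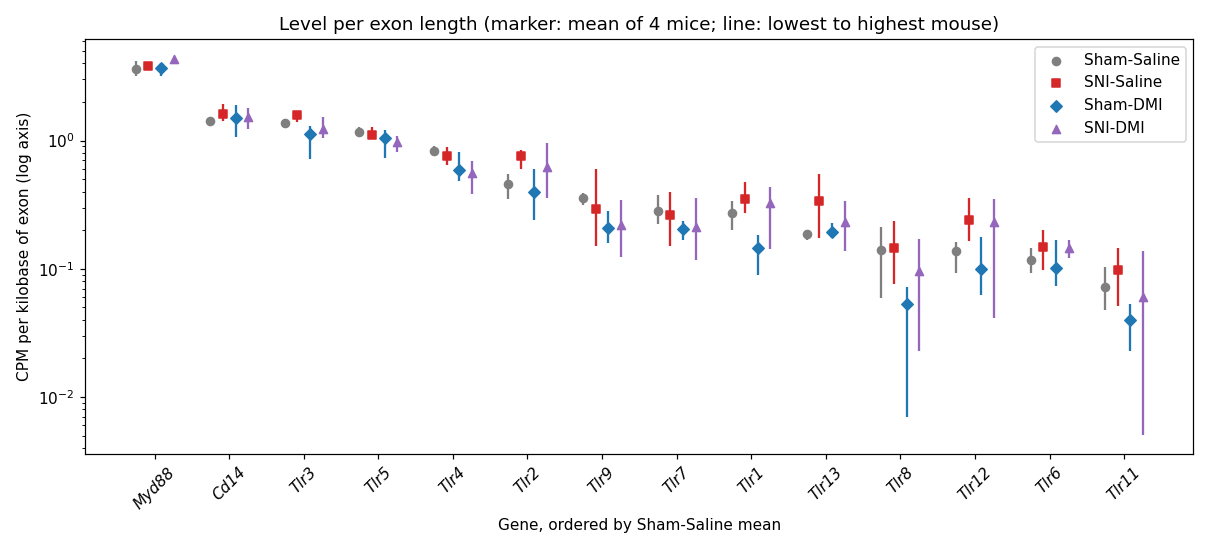
Level of the 10 genes and of Tlr5, Tlr6, Tlr11 and Tlr12 in CPM per kilobase of exon on a log axis, ordered by the Sham-Saline mean. Markers are means of 4 mice and lines run from the lowest to the highest mouse; Myd88 lies above every receptor in all 4 groups.

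SNI-Saline was compared with Sham-Saline to show what nerve injury changed. Tlr13 rose with injury. Its CPM in the Sham-Saline mice was 0.783, 0.861, 0.826 and 0.725, and in the SNI-Saline mice 1.36, 2.35, 1.38 and 0.749. Of the 4 injured mice, 3 lay above every sham mouse and the other lay within their range. The fold change was 0.87 on the log2 scale (SE 0.288, adjusted p = 0.0801 in edgeR's quasi-likelihood test), and Tlr13 was the only member with an adjusted p under 0.1. Over all 21371 genes tested, 12.0% passed this threshold, so 1 of 10 members is close to the background.

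The Tlr13 call was not stable. It was lost without any 1 of the 4 Sham-Saline mice and without replicate 1 or 2 of SNI-Saline. Leaving out SNI-Saline replicate 2, the highest of the injured mice, the log2 fold change was 0.55 (edgeR adjusted p = 0.285).

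Tlr2 had the clearest separation of the groups after injury. Sham-Saline mice had 1.57, 1.65, 1.06 and 1.25 CPM and SNI-Saline mice 2.52, 2.54, 1.82 and 2.29, so every injured mouse lay above every sham mouse. The log2 difference was 0.73 (SE 0.29), which did not pass in edgeR (adjusted p = 0.138). It passed in DESeq2 (adjusted p = 0.0643) and in edgeR fitted to these 8 libraries alone (adjusted p = 0.0251). Non-overlap was found for 15.4% of all genes tested and, among the members, for Tlr2 alone. By a looser rule (unadjusted p under 0.05, log2 difference of 0.32 or more in size), which 7.15% of genes met, Tlr13 and Tlr2 were the 2 nominal DEGs among the members.

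The other members did not pass the test. The log2 differences were 0.37 for Tlr1, 0.22 for Tlr3, -0.13 for Tlr4, -0.10 for Tlr7, 0.04 for Tlr8, -0.28 for Tlr9, 0.09 for Myd88 and 0.18 for Cd14, with edgeR adjusted p from 0.422 to 0.975. The median over the 10 members was 0.14, with 7 higher and 3 lower, beside -0.001 and 50.1% lower over all genes. In Sham-Saline Tlr9 was at 1.36, 1.23, 1.28 and 1.1 CPM, and in SNI-Saline at 0.525, 2.07, 0.787 and 0.703 CPM. Thus 3 of 4 injured mice lay below every sham mouse and replicate 2 lay above all of them. Without that replicate the log2 difference of Tlr9 was -0.87 (edgeR adjusted p = 0.119).

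**Figure D2:**
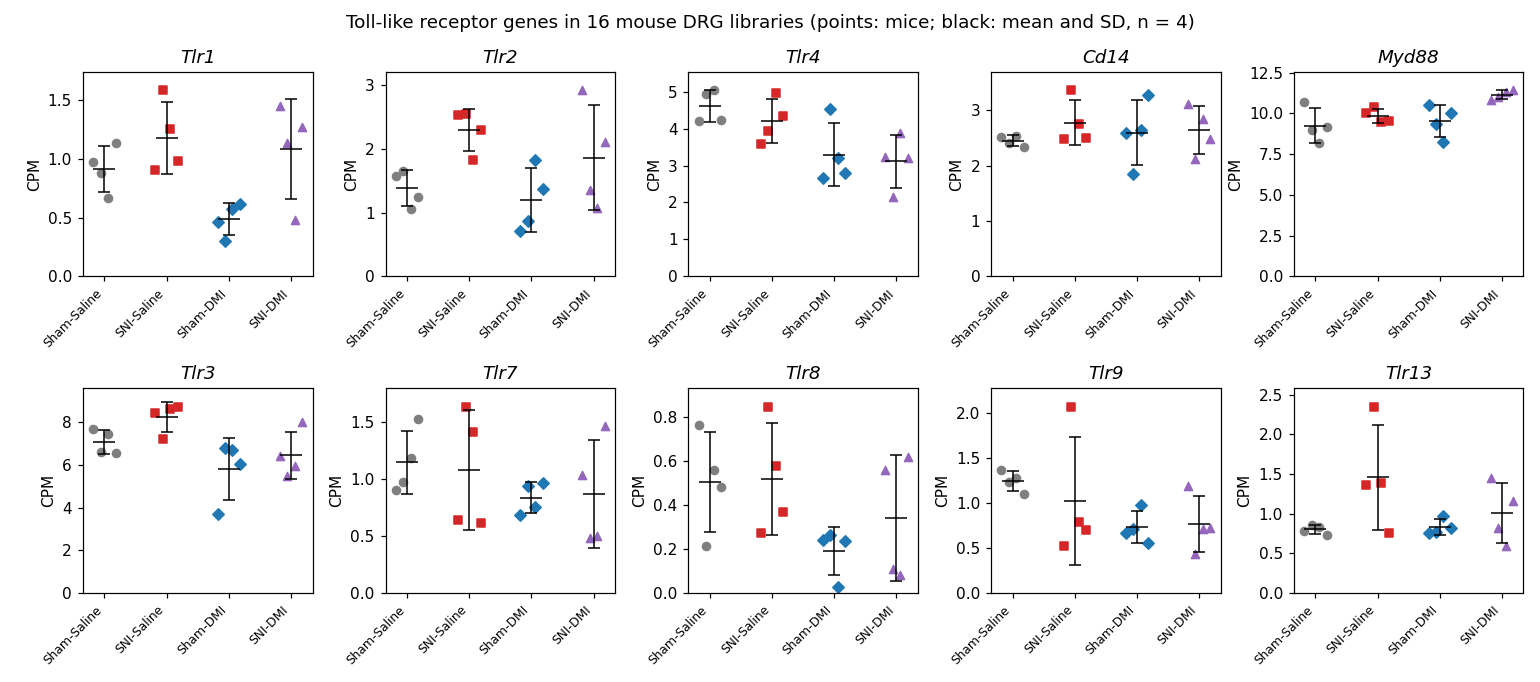
CPM of each of the 10 genes in every mouse on linear axes from 0, with 1 point per mouse and the mean and SD of 4 mice in black. SNI-Saline mice lie above all Sham-Saline mice for Tlr2, whereas for Tlr13 1 of the 4 SNI-Saline mice lies among the Sham-Saline mice.

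Genes of macrophages moved with injury too. The 12 macrophage genes examined (Csf1r, Cd68, Aif1, Adgre1, Cx3cr1, Mrc1, Cd163, Fcgr1, C1qa, C1qb, C1qc and Lyz2) summed to 162 to 192 CPM in sham and 210 to 380 CPM in injured saline mice, and 6 of the 12 were called higher. None was at 0 in any library. Of the 12, 11 had a positive log2 difference, and Cd163 had a negative one (-0.30, edgeR adjusted p = 0.201). The highest sum was that of SNI-Saline replicate 2, the mouse with the highest value of its group for every member but Tlr3 and Tlr4. Relative to 1000 CPM of macrophage genes, Tlr13 was 4.48 ± 0.481 in Sham-Saline and 5.4 ± 1.27 in SNI-Saline, and the groups overlapped. By the same ratio Tlr9 was 6.99 ± 1.11 and 3.6 ± 1.29, and Tlr4 25.8 ± 2.76 and 16.9 ± 4.69, without overlap in either case. Such a lower, non-overlapping ratio was found for 4 of 10 members (Cd14, Myd88, Tlr4 and Tlr9) and for 44.4% of all genes tested. In RNA from whole ganglia, a change in the number of cells of a type and a change in RNA per cell cannot be told apart. The part of the macrophage genes in the Tlr13 and Tlr2 values was not tested.

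**Figure D3:**
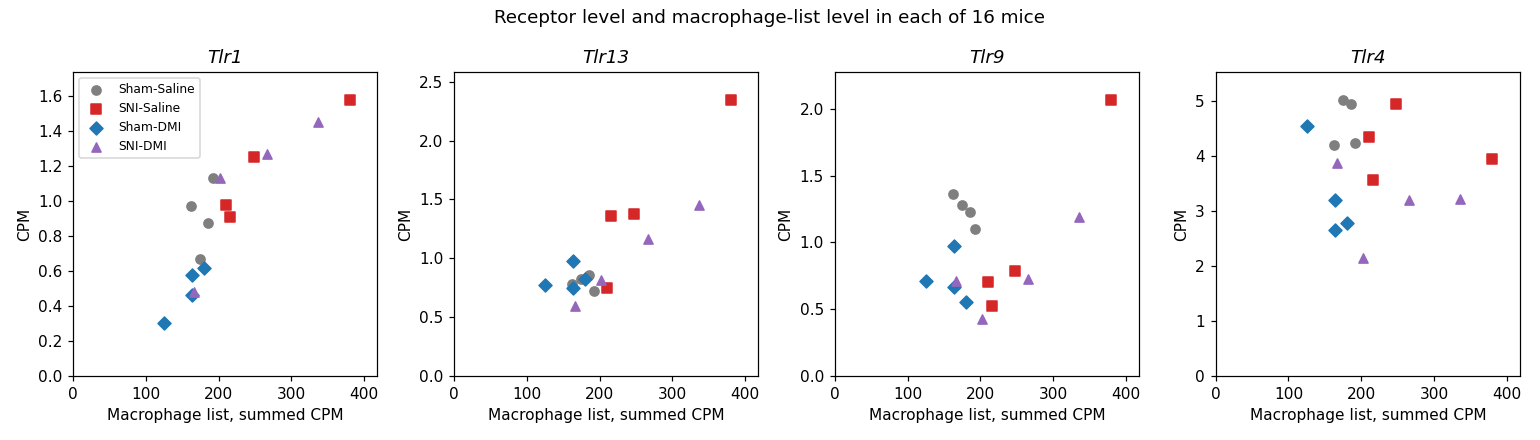
CPM of Tlr1, Tlr13, Tlr9 and Tlr4 against the summed CPM of the 12 macrophage genes in each of the 16 mice, by group. SNI-Saline replicate 2, at 380 CPM of macrophage genes, has the highest Tlr1, Tlr13 and Tlr9, whereas Tlr4 in that mouse (3.94 CPM) is not among the highest.

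SNI-DMI was compared with SNI-Saline to show what the drug changed in injured mice. In edgeR no member passed an adjusted p of 0.1 in either direction, where 2.93% of all genes did, and none did in DESeq2. Lower values prevailed: 9 of 10 members had a negative log2 difference, with a median of -0.33, beside 51.0% of all genes and a median of -0.005. The members share libraries and are not independent of each other. Tlr4 and Tlr3 were the members with a nominal p under 0.05 and a log2 difference of at least 0.32 in size, a rule met by 5.73% of genes.

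Tlr4 was at 3.57, 3.94, 4.95 and 4.34 CPM in SNI-Saline and at 3.22, 2.14, 3.88 and 3.2 CPM in SNI-DMI. Of the DMI mice, 3 lay below every saline mouse and 1 lay within their range. The log2 difference was -0.44 (SE 0.18, edgeR adjusted p = 0.206). Tlr3 was at 8.44, 7.23, 8.64 and 8.74 CPM in SNI-Saline and at 6.43, 5.47, 5.94 and 8.02 CPM in SNI-DMI, a log2 difference of -0.35 (SE 0.155, edgeR adjusted p = 0.233). An antisense gene, Gm45542, overlaps 7.3% of the exon bases of Tlr3, and the strand setting of the counting is not stated.

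Tlr13 had a log2 difference of -0.54 (SE 0.284, edgeR adjusted p = 0.317) between the injured groups. Its values in SNI-DMI, 1.45, 0.812, 0.594 and 1.16 CPM, spanned those of both saline groups except the highest. Tlr8 had the widest error, at -0.60 (SE 0.574). Tlr9, Tlr7, Tlr2, Tlr1 and Cd14 had log2 differences of -0.43, -0.31, -0.30, -0.13 and -0.07, and their groups overlapped.

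Myd88 went the other way. Its level ran from 9.48 to 10.4 CPM over the SNI-Saline mice and from 10.8 to 11.4 CPM over the SNI-DMI mice, so the groups did not overlap, as for 13.3% of all genes. The log2 difference of 0.17 (SE 0.0895) did not pass in edgeR (adjusted p = 0.309). Acaa1a on the opposite strand overlaps 11.3% of the exon bases of Myd88.

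Sham-DMI was compared with Sham-Saline to show what the drug changed without nerve injury. Tlr1 and Tlr4 fell. Tlr1 was at 0.974, 0.875, 0.67 and 1.13 CPM in Sham-Saline and at 0.461, 0.302, 0.574 and 0.615 CPM in Sham-DMI, and every DMI mouse lay below every saline mouse. The log2 fold change of Tlr1 was -0.92 (SE 0.312, edgeR adjusted p = 0.0522). Tlr1 shares 13.6% of its 50-base stretches with Tlr6, its neighbour on chromosome 5, so its level is uncertain where both reads of a pair lie in such stretches, a share that was not tested. Tlr6 itself had a log2 difference of -0.24 (SE 0.302, edgeR adjusted p = 0.635).

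Tlr4 was at 4.21, 4.94, 5.03 and 4.24 CPM in Sham-Saline and at 2.66, 4.54, 3.2 and 2.79 CPM in Sham-DMI. Replicate 2 of Sham-DMI lay within the saline range and the other 3 mice below it. The log2 fold change was -0.48 (SE 0.18, edgeR adjusted p = 0.0787). With 23.4% of all genes called in this comparison, and 11.9% called lower, 2 of 10 members is within the background.

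Both calls depended on single mice. That of Tlr1 was lost without any 1 of Sham-Saline replicates 1 and 4 and Sham-DMI replicates 1 and 2, where the log2 fold change ran no weaker than -0.71 and the edgeR adjusted p no higher than 0.134. That of Tlr4 was lost without any 1 of 8 mice (Sham-DMI replicates 1, 3 and 4, Sham-Saline replicates 2 and 3, SNI-DMI replicates 1 and 4 and SNI-Saline replicate 2), with a log2 fold change of -0.37 and an edgeR adjusted p of 0.232 at the weakest. With trends in GC content and length removed, Tlr4 was at -0.25 (edgeR adjusted p = 0.362), and in edgeR fitted to these 8 libraries alone at -0.46 (adjusted p = 0.103).

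Tlr9 and Tlr8 were nominal DEGs as well, a rule that 11.5% of all genes met in this comparison. Tlr9 was at 0.666, 0.714, 0.974 and 0.552 CPM in Sham-DMI, all below the Sham-Saline mice. Its log2 difference was -0.79 (SE 0.356), which did not pass in edgeR (adjusted p = 0.142) and passed in edgeR fitted to these 8 libraries alone (adjusted p = 0.0396) and without SNI-Saline replicate 2 (adjusted p = 0.0512). Groups did not overlap for 17.1% of all genes. Tlr8 was at 0.765, 0.212, 0.561 and 0.483 CPM in Sham-Saline and at 0.239, 0.261, 0.025 and 0.236 CPM in Sham-DMI, with a log2 difference of -1.32 (SE 0.608, edgeR adjusted p = 0.151). It passed in DESeq2 (adjusted p = 0.0909) and in edgeR without Sham-Saline replicate 2 (adjusted p = 0.0943). The lowest Tlr8 value, in Sham-DMI replicate 3, rests on 1 read, below the 3 counts taken as the limit of detection.

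Tlr7, Tlr3 and Tlr2 had log2 differences of -0.46, -0.29 and -0.23, and Cd14, Tlr13 and Myd88 of 0.08, 0.04 and 0.04, with overlapping groups. The median over the 10 members was -0.37, with 7 lower, beside -0.021 and 53.3% lower over all genes. SNI-Saline and Sham-DMI are each compared with the same Sham-Saline mice, so the values of these comparisons are not independent.

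Genes of other immune cells also differed with the drug. The 12 macrophage genes summed to 125 to 180 CPM in Sham-DMI, and 1 of them, Mrc1, was called lower. Of 11 neutrophil genes, 10 were tested, and 7 were called lower in Sham-DMI and 2 in SNI-DMI. In sham mice their sums were 10.9 to 41.3 CPM with saline and 4.05 to 19 CPM with DMI, and in injured mice 16.4 to 52.5 and 4.69 to 14.3 CPM. Relative to 1000 CPM of macrophage genes, Tlr1 was 5.1 ± 1.04 in Sham-Saline and 3.04 ± 0.515 in Sham-DMI, and the groups did not overlap. A lower ratio without overlap was found for 1 of 10 members and 0.655% of all genes, and a higher one for no member and 12.7%. The macrophage sum averaged 179 CPM in Sham-Saline and 158 CPM in Sham-DMI, and a lower sum raises every ratio. Tlr1 CPM did not overlap in the same mice, so its ratio is not a separate result. The part of these cell types in the values of Tlr1, Tlr4, Tlr8 and Tlr9 was not tested.

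**Figure D4:**
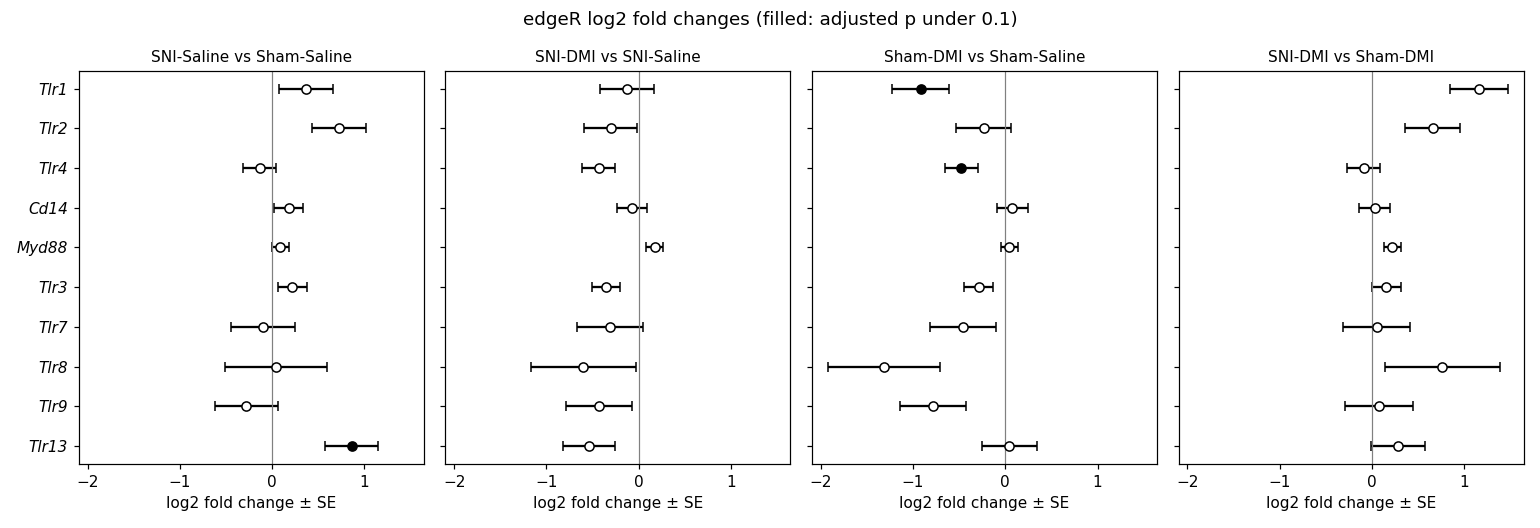
Log2 fold change with its SE for each of the 10 genes in the 4 comparisons, from the edgeR fit; filled points have an adjusted p under 0.1. Filled points are Tlr13 after injury and Tlr1 and Tlr4 in Sham-DMI, and in SNI-DMI against SNI-Saline every point but that of Myd88 lies left of 0.

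SNI-DMI was compared with Sham-DMI to show the injury difference under the drug. No member passed an adjusted p of 0.1 in edgeR, where 0.402% of all genes did. Tlr1 came nearest, with 1.45, 1.13, 0.478 and 1.27 CPM in SNI-DMI, of which 3 lay above every Sham-DMI mouse. Its log2 difference was 1.16 (SE 0.311, edgeR adjusted p = 0.154), and it passed in DESeq2 (adjusted p = 0.0294). Tlr2 differed by 0.66 (SE 0.297, edgeR adjusted p = 0.382). An unadjusted p under 0.05 in edgeR was reached by 3 members, these 2 and Myd88, and by 12.1% of all genes. Tlr1 and Tlr2 were the nominal DEGs among the members, beside 5.41% of all genes.

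Myd88 did not overlap between these groups either, as for 5.04% of genes, at 10.5, 9.36, 8.24 and 9.99 CPM in Sham-DMI and a log2 difference of 0.22 (SE 0.0897, edgeR adjusted p = 0.335). The other 7 members had log2 differences from -0.09 to 0.76. The median over the 10 members was 0.19, with 9 higher and 1 lower, beside 49.8% lower over all genes.

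Whether the drug acted differently in injured and sham mice was tested as the difference of the 2 DMI effects. No member passed in edgeR or DESeq2 or had an unadjusted p under 0.05, and over all 21371 genes edgeR called none at an adjusted p under 0.1 (0.0%), DESeq2 called 16 and 1692 had an unadjusted p under 0.05. The difference was 0.79 (SE 0.425, edgeR adjusted p = 0.646) for Tlr1 and -0.58 (SE 0.412, edgeR adjusted p = 0.733) for Tlr13. For Tlr4, whose log2 difference with DMI was -0.48 in sham and -0.44 in injured mice, it was 0.04 (SE 0.254).

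The remaining Toll-like receptors, Tlr5, Tlr6, Tlr11 and Tlr12, gave no call in any comparison. Tlr12, which recognises protozoan profilin, was at 0.434 ± 0.102 CPM in sham and 0.762 ± 0.27 CPM in injured saline mice, without overlap, and had a log2 difference of 0.80 (SE 0.449, edgeR adjusted p = 0.298).

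Of 16 accessory and trafficking proteins, 3 were called higher after injury and none lower, where 5.85% of all genes were called higher and 6.18% lower. These were the endosomal proteases Ctss, Lgmn and Ctsb, which cleave the endosomal receptors. Ctss rose from 13.5 ± 1.04 to 27.1 ± 12.8 CPM (log2 1.01, edgeR adjusted p = 0.032), and Lgmn and Ctsb rose by 0.24 and 0.18 on the log2 scale. The Lgmn call was lost with trends in GC content and length removed, and that of Ctsb without a filter on low counts. Unc93b1, the chaperone that carries these receptors to endosomes, was at 18.9 ± 0.738 and 23.3 ± 5.02 CPM (log2 0.30, edgeR adjusted p = 0.186). Ly96, the MD-2 partner of Tlr4, was at 1.76 ± 0.169 and 2.01 ± 0.546 CPM.

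In Sham-DMI 3 of the 16 were called higher and 3 lower than in Sham-Saline, where 11.6% of all genes were called higher and 11.9% lower. These shares, with 2.93% called between the injured groups and 0.402% between the DMI groups, are also the background of the lists that follow. Lgmn (0.28), Ctsb (0.20) and Cnpy3 (0.26), a chaperone of several receptors, were higher. Cd180, a Tlr4-like receptor of immune cells, fell from 1.38 ± 0.365 to 0.799 ± 0.0584 CPM (log2 -0.78, edgeR adjusted p = 0.0424), and no mouse overlapped. Cd36, a scavenger receptor that assists Tlr2, had a log2 fold change of -0.74, and Tirap, which links Tlr2 and Tlr4 to Myd88, of -0.28. The Cd36 call was lost with trends in GC content and length removed. That of Tirap was lost without a filter on low counts and in edgeR on the 8 libraries compared. None of the 16 was called between the injured groups or between the DMI groups.

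Among 17 adaptors, kinases and ligases, Tab3, a ubiquitin-binding subunit of the Map3k7 complex, was called lower in 3 comparisons. With saline it was at 55.5 ± 3.93 CPM in sham and 45.6 ± 3.46 CPM in injured mice, and with DMI at 44.6 ± 5.42 and 36.8 ± 1.75 CPM. The log2 fold change was -0.28 after injury, -0.31 with DMI in injured mice and -0.32 with DMI in sham mice. All 3 calls were lost when trends in GC content and length were removed. The call in injured mice was also lost with a replicate block and held in 6 of 16 fits with a library left out. In Sham-DMI Chuk (-0.24), Map3k7 (-0.13) and Tab2 (-0.12) were also called lower and Tab1 (0.18) higher. None of these calls held with trends in GC content and length removed. The Map3k7 call was also lost without a filter on low counts and in edgeR on the 8 libraries compared. The Tab2 call held in 1 of 8 alternatives and in 1 of 16 fits with a library left out.

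Of 8 transcription factors, Irf3 was called higher with DMI in injured mice (log2 0.17, edgeR adjusted p = 0.0985) and in sham mice (0.15), and Rel, an NF-kB subunit, was called lower in sham mice (-0.42). Irf7, the regulator of type I interferon, rose from 4.94 ± 0.96 CPM in Sham-DMI to 12.1 ± 4.95 CPM in SNI-DMI (log2 1.29, edgeR adjusted p = 0.0841). With each of the 16 libraries left out in turn, the calls of Irf7 and of Irf3 in injured mice each held in 6 of 16 fits. The calls of Irf3 in injured and sham mice and that of Rel were lost with trends in GC content and length removed. Of 9 inhibitors, Cyld, a deubiquitinase, was called lower after injury (-0.22) and in Sham-DMI (-0.12), the latter in 4 of 8 alternatives and 5 of 16 fits with a library left out. Each Cyld call was lost with those trends removed.

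Of 20 target genes of the pathway, 13 passed the filter and 3 were called higher after injury, where 5.85% of all genes were. Cxcl10, an interferon-inducible chemokine, rose from 3.0 ± 0.838 to 12.0 ± 9.28 CPM (log2 1.99, edgeR adjusted p = 0.025). Il6 rose from 0.123 ± 0.0926 to 0.358 ± 0.0877 CPM (log2 1.5, edgeR adjusted p = 0.0571). Its lowest Sham-Saline value, 0.0312 CPM, was below the 3 counts taken as the limit of detection. The costimulatory ligand Cd86 rose from 1.14 ± 0.241 to 2.03 ± 0.417 CPM (log2 0.83). For each of the 3 genes every injured mouse lay above every sham mouse, as for 7.67% of all genes. With each library left out in turn, the calls held in 15 (Cxcl10), 11 (Il6) and 13 (Cd86) of 16 fits. The median over the 13 was 0.58 after injury, with 12 higher. Tnf and Il1b, at 0.183 ± 0.0788 and 0.424 ± 0.265 CPM in SNI-Saline, had log2 differences of 1.03 (SE 0.664) and 0.23 (SE 0.553) that did not pass in edgeR.

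With DMI no target gene was called in injured mice and the median was -0.48, with 11 of 13 lower. Il6 (log2 -1.48, SE 0.453) and Lcn2 (-1.05, SE 0.323) were lower without overlap, as were 5.97% of all genes. Il6 and Lcn2 each had an edgeR adjusted p of 0.11. In sham mice the median was -0.42, again with 11 lower, and Lcn2, an iron-binding protein of neutrophils and injured tissue, was called lower (-1.11, edgeR adjusted p = 0.0277), beside the neutrophil genes given above. Between the DMI groups the median was 1.07, with 12 higher and none called. The other 7 target genes were not tested, among them Ifnb1, with 2 reads over the 16 libraries.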

How the data were processed

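The values deposited by the authors are whole-number counts of read pairs per Ensembl gene, 1 file per mouse, without normalization. Per the labels and methods, a stranded mRNA kit was used, and the submitters' processing notes name HISAT2, HTSeq, DESeq2 and mm10. Annotation release and strand setting are not given in the sources used here. Lines without a gene (18.83% to 20.44% of read pairs, 3.05% to 3.41% ambiguous) were left out. Symbols and coordinates were taken from GENCODE M21 (GRCm38), which holds 52489 of the 52636 listed genes.

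Counts were analysed with edgeR 4.0.16 in R 4.3.3: TMM normalization, filterByExpr (21371 genes kept) and the quasi-likelihood test over all 16 libraries with 1 coefficient per group. P-values were adjusted by Benjamini-Hochberg over all genes tested and called under 0.1. The looser nominal rule followed the study's methods. P-values set each group difference against a spread between mice that was estimated over all 4 groups in 1 fit. CPM used TMM-scaled library sizes. Levels were compared between genes per kilobase of merged exons. Alternatives were DESeq2 1.42.0 (also with its automatic filter off, added after seeing the data), no filter, at least 10 counts in every library, upper-quartile normalization, the 8 libraries compared, a replicate block, removal of GC and length trends with mgcv 1.9.3, and leaving out each library. Likeness was Pearson's r of log2 CPM over 15744 genes of at least 1 CPM. In counts simulated for SNI-Saline against Sham-Saline over 21371 genes, 200 genes were changed. Of changes of 1 on the log2 scale 75% were called and of changes of 0.5 50%, and 10.7% of calls were false. The changed genes were drawn at random from genes of all levels, so the shares called do not give the power for genes as low as most members. The simulated counts held no trends by GC content, length or library order. Fewer genes were changed than the 2571 called in the data, so the 10.7% does not give the false share there.

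Members, pathway lists and marker lists were chosen with earlier results of these data known. All members, every pathway gene called in a pairwise comparison, the remaining receptors and the 3 most alike genes per member were to be named. The genes most alike Tlr9 and the marker lists not given above are not reported here. Tnf, Il1b, Unc93b1, Ly96 and Ifnb1 were named after their values were seen.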

Additional observations from a re-analysis of the deposited data

Results flagged for a closer look

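In 2 of 48 sets of 4 mice (the 10 members and the macrophage and neutrophil sums in each group), 1 mouse lay further from the others than Dixon's limit for 4 samples, where chance gives about 1 in 20 sets. Tlr8 in Sham-DMI replicate 3 was at 0.025 CPM, from 1 read, and the other 3 mice of the group were at 0.236 to 0.261 CPM. Tlr9 in SNI-Saline replicate 2 was at 2.07 CPM, and the other 3 were at 0.525 to 0.787 CPM. That library also had the highest macrophage sum of the series, 380 CPM. Whether this bears on its Tlr9 level was not tested.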

How the results depend on the processing

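Beyond the calls described above, the number of members called moved as follows. After injury it was 2 in DESeq2 with its automatic filter off and in edgeR on the 8 libraries compared (Tlr2 and Tlr13), and 0 with a replicate block. In Sham-DMI against Sham-Saline it was 1 with GC and length trends removed, where the median of the members was -0.25, and 3 in DESeq2 (Tlr1, Tlr4 and Tlr8). Tlr4 was lost there under 2 alternatives, GC and length removal and edgeR on the 8 libraries compared. The last of these called Tlr1 and Tlr9. Between the DMI groups it was 1 (Tlr1) without a filter and in DESeq2 with and without its automatic filter. Without 1 library at a time the number ran from 0 to 2 after injury, 0 to 1 with DMI under SNI, 0 to 2 with DMI under sham and 0 to 1 between the DMI groups, and the median with DMI under sham from -0.427 to -0.229.

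Among the members, signs turned only for differences that were not called. With GC and length trends removed the log2 differences after injury were 0.015 for Tlr4 and 0.001 for Tlr7, with DMI under sham -0.022 for Myd88 and -0.005 for Cd14, and between the DMI groups 0.007 for Tlr4 and -0.014 for Cd14. Without 1 library at a time the lowest and highest were, after injury, -0.29 and 0.32 for Tlr8 and -0.36 and 0.10 for Tlr7. With DMI under SNI they were -0.28 and 0.13 for Tlr1, -0.71 and 0.19 for Tlr9, and -0.15 and 0.047 for Cd14, and with DMI under sham -0.019 and 0.10 for Tlr13 and -0.042 and 0.23 for Cd14. Between the DMI groups they were -0.025 and 0.25 for Tlr3, -0.20 and 0.12 for Tlr4, -0.35 and 0.26 for Tlr7, -0.21 and 0.28 for Tlr9, and -0.10 and 0.15 for Cd14. The cause was not tested.

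Whether the replicate numbers pair the mice was not settled. Correlations of same-numbered mice ran from -0.081 to 0.184, and those of differently numbered mice were not computed. With the replicate number as a block, Tlr13 after injury was 0.83 (edgeR adjusted p = 0.116), and no other member changed its call. Over all genes, the count called with DMI under SNI was 626, but 172 with the block, 59 with GC and length trends removed, 1898 in DESeq2 and 0 without any 1 of 5 libraries. Of 26 calls in the pathway lists, 9 held under every alternative that gave a value and 4 also without each library in turn. Cyld in Sham-DMI changed sign once. Genes under 1 CPM, such as Tlr8, are limited by depth.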

Other observations

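Some genes followed single members closely from mouse to mouse. Over the 16 libraries, the gene most alike Tlr1 among 15744 was Cd53, a leukocyte tetraspanin (Pearson r = 0.912, Spearman rho 0.85), followed by Mpeg1, a pore-forming protein of macrophages (0.909), and Nckap1l (0.903), which is a blood cell gene. For Tlr13 they were Cd84 (0.922), Lyz2 (0.851) and Selplg (0.847), for Tlr8 Ifih1 (0.854), Lyn (0.846) and Clec4a1 (0.844), and for Cd14 Ramp3 (0.78), Arhgdib (0.762) and Ctsh (0.762). Tlr7 had Pcdhgb4 (0.811), the macrophage mannose receptor Mrc1 (0.783) and Olfml1 (0.757).

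Other genes were the most alike Tlr4, Tlr3, Tlr2 and Myd88. For Tlr4 these were Dis3 (0.924), the amino acid transporter Slc38a1 (0.92) and Cntnap3 (0.914), for Tlr3 Pld1 (0.943), Itih5 (0.942) and the metalloproteinase inhibitor Timp3 (0.927), for Tlr2 Sostdc1 (0.886), AW112010 (0.862) and Parp3 (0.853), and for Myd88 Bpgm (0.87), Gm3222 (0.866) and Gm27202 (0.864). Among the members, Tlr2 had a Pearson r of 0.76, 0.72, 0.43, 0.29 and 0.22 with Tlr1, Tlr13, Cd14, Tlr8 and Tlr7. With Tlr3, Myd88 and Tlr4 it had 0.63, 0.14 and 0.04. The genes most alike in both paragraphs were picked as the highest of 15744 correlations, the 16 points share group and library effects, and no test was made.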
